A study of Mus musculus with 4 samples.

Results

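The microRNA (miRNA) families miR-297, miR-466, miR-467 and miR-669 were examined in the stromal-vascular fraction (SVF) of visceral white adipose tissue (visWAT). Their members were taken by name, as every mouse miRNA of the array called miR-297, miR-466, miR-467 or miR-669 with any letter and arm. This gave 61 of the 1247 mouse miRNAs measured, with 3 members of miR-297, 23 of miR-466, 12 of miR-467 and 23 of miR-669. C57BL/6 female mice aged 8 weeks received CL-316243 (CL), an agonist of the β3-adrenoceptor that induces browning of white fat, at 1 mg/kg for 3 days, or PBS as vehicle. The labels give a subcutaneous route and the methods of the study an intraperitoneal one. The adipocytes were removed after collagenase digestion, and the RNA of the SVF was hybridised in 1 colour. There were 2 vehicle arrays and 2 CL arrays, each made from pooled tissue of 5 mice, so the spread between arrays is that between pools. A pooled fraction cannot tell fewer cells of a type from less RNA per cell.

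A miRNA guides an Argonaute protein to messenger RNAs that pair with its seed, bases 2 to 8 from its 5′ end. Most genes of these families lie in tandem in an intron of Sfmbt2, a Polycomb-group gene that is imprinted and expressed from the paternal allele in mouse placenta. The cluster has expanded in rodents and its copies are near-identical. Many of its mature miRNAs carry stretches of alternating bases, so that a probe for 1 member can resemble the probes of several others.

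By the positions given with the probes, not all members belonged to the cluster. The span of Sfmbt2 in RefSeq (GRCm38.p6) is chr2:10370440-10595253, and 71 of the 81 RefSeq miRNA genes of these families lie inside it, between 10466663 and 10518279. The probes of 51 members pointed to such genes only within Sfmbt2. The 7 members with no position there were miR-466i-3p and miR-466i-5p on chromosome 13, miR-466j on chromosome 10, miR-466k and miR-466q on chromosome 3, miR-467f on chromosome 11 and miR-467g on chromosome 5. The 3 others, miR-669b-5p, miR-669l-5p and miR-669n, had positions inside Sfmbt2 and on another chromosome. No annotation of exons was used, so that the intron itself was not checked. Of the 239 positions listed for the members, 149 lay inside a RefSeq gene of the families. The other 90 did not, the build behind them is not certain (the scanner header names mm9), and they were not used.

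The mature sequences of 4 of the 14 members that were detected could be taken from RefSeq (GRCm38.p6), and they are shown, 5′ to 3′ with the seed in capitals, because the seeds differ. The first 3 carry alternating adenines and cytosines after the seed, and miR-669n carries guanines and uracils instead.
miR-466i-3p: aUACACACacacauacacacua
miR-466q: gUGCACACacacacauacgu
miR-467f: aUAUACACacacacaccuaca
miR-669n: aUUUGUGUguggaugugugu
The 7 members matched in RefSeq, of 61, had 7 different seeds. Each was matched at a gene on a chromosome other than that of Sfmbt2, so the seeds of the cluster itself are not shown. The mature sequence of miR-466i-3p lies at chr13:17747552-17747573 on the plus strand, and that of miR-466q at chr3:28419988-28420007 on the plus strand. For miR-467f only the RefSeq gene is given, chr11:69635400-69635519, because the position listed for the probe and that of the mature miRNA in RefSeq did not overlap within it. miR-669n was placed by RefSeq at chr3:115979905-115979924 on the plus strand. The longest probe of miR-466i-3p covered bases 4 to 22 of the miRNA, that of miR-466q bases 4 to 20, that of miR-467f bases 5 to 21 and that of miR-669n bases 3 to 20. The first bases of these seeds therefore lay outside the probes.

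The longest probes of the detected members are shown next, because most of them hold a repeat of alternating bases. They are the DNA complements of the miRNAs, written 5′ to 3′, with runs of 6 or more strictly alternating bases in capitals. The first 8 were detected on all arrays and hold an unbroken run of 10 to 12 alternating guanines and thymines.
miR-466f-3p: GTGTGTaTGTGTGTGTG
miR-466h-3p: GTGTGTGTGTGcgt
miR-466i-3p: taGTGTGTaTGTGTGTGTG
miR-466q: acgtaTGTGTGTGTGTG
miR-467f: tgtagGTGTGTGTGTGT
miR-669c-3p: tttactTGTGTGTGTGTG
miR-669f-3p: atacGTGTGTGTGTatgt
miR-669p-3p: atacGTGTGTGTGTGTatg
The next had a run of 8 and was also detected on all arrays.
miR-466g: TGTGTGTGcatgtgtc
A further 3 were detected on the vehicle arrays only.
miR-467a-3p: tgtagGTGTGTGTatgtata
miR-467d-3p: gtgtagGTGTGTGTatg
miR-669h-3p: tgtgcaTGTGTGTatatgc
The last 2 hold the complementary repeat, alternating adenines and cytosines, and would take up RNA with alternating uracils and guanines.
miR-466i-5p: CACACACACACACACA
miR-669n: ACACACAtcCACACACAa
For comparison, the probe of miR-297a-3p, the miR-297 member with the highest signal, was not detected on any array and holds a run of 7.
miR-297a-3p: tatgggtaTGTGTGTatgt

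No probe sequence was shared by different miRNAs of the array, but the members' probes overlapped in sequence far more than other probes did. Each member had 40 spots, which were divided among 1 to 4 probes of 13 to 23 bases, nested within each other. The longest unbroken run that a member's longest probe shared with that of another member had a median of 14 bases, and 38 of 61 members (62.3%) shared 14 or more. Among the 1186 miRNAs that are no members, the median was 8 bases and 54 (4.55%) reached 14. The longest probes of 11 members were nested in, or differed by a single base from, that of another member, in 6 pairs in all. Of these pairs, miR-466f-3p and miR-466i-3p were the only ones with both members detected, and the probe of the former lies whole within that of the latter. The probes of miR-467a-3p and miR-467d-3p share 16 bases, and those of miR-669f-3p and miR-669p-3p share 14. Further, 11 members had a probe that the files list under more than 1 name. The probe named miR-669f-3p also stands for miR-669a-3p and miR-669o-3p, with 13 positions in Sfmbt2, and that of miR-669n also stands for miR-669c-5p. The probe of miR-467a-3p had 10 positions. Signal of such probes cannot be assigned to a single gene copy, and members are not independent measurements.

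Detection was sparse. The scanner software calls a miRNA detected on an array from the signal of its probes relative to their error. By this call, 14 members (23.0%) were found on both arrays of either group, against 425 of all 1247 miRNAs (34.1%). The vehicle arrays detected 14 and 15 members (23.0% and 24.6%), and the CL arrays 11 and 11 (18.0%). Of all miRNAs the vehicle arrays detected 34.6% and 33.7%, and the CL arrays 31.0% and 32.3%. These were 6 of 23 members of miR-466, 3 of 12 of miR-467, 5 of 23 of miR-669 and 0 of 3 of miR-297. No spot of any miR-297 probe was well above background on any array. The 3p arms accounted for 9 of the 14 (9 of 26 on the array). Only miR-466i-5p was found among the 25 members named as 5p arms, and the other 4 were among the 10 members named without an arm. By place, 9 of the 51 members positioned only in Sfmbt2 (17.6%) were detected, and 4 of the 7 positioned only outside it (57.1%). miR-467b-3p was the only other member detected on any array, which was the second vehicle array. The remaining 46 members were detected nowhere.

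Among the members, detection went with the repeat in the probe, with exceptions. All 8 members with a run of 10 or more alternating guanines and thymines in the longest probe were detected on both arrays of a group, as were 3 of the 9 with a run of 8 or 9, 1 of the 12 with a run of 6 or 7, and 2 of the 32 with shorter runs, miR-466i-5p and miR-669n. Of the 9 with a run of 8 or 9, miR-467b-3p, miR-467c-3p, miR-467e-3p, miR-467g, miR-669a-3-3p and miR-669e-3p were not detected in this way, while miR-669h-3p was with a run of 7. For alternating cytosines and adenines the counts were lower. The only member with a run of 10 or more, miR-466i-5p, was detected, as were 1 of the 5 with a run of 8 or 9 and 0 of the 11 with a run of 6 or 7. miR-669n was detected with a run of 8, and miR-466a-5p and miR-466p-5p were not with a run of 9. The bands of run length were set after detection was seen, and are a description. GTGTGT or TGTGTG, read on the probe strand only, stood in the longest probe of 29 members, of which 12 (41.4%) were detected. On the whole array 38 of the 1247 miRNAs (3.05%) had it, of which 15 (39.5%) were detected. CACACA or ACACAC stood in 17 members, of which 2 (11.8%) were detected. It stood in 37 (2.97%) of all, of which 8 (21.6%) were detected. The share detected over all miRNAs was 34.1%. The members of each pair of motifs overlap each other. No other miRNA of the array had a run of 8 or more alternating guanines and thymines. Of the others with a run of 6 or 7, 3 of 9 (33.3%) were detected, and with shorter runs 408 of 1177 (34.7%).

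**Figure D1:**
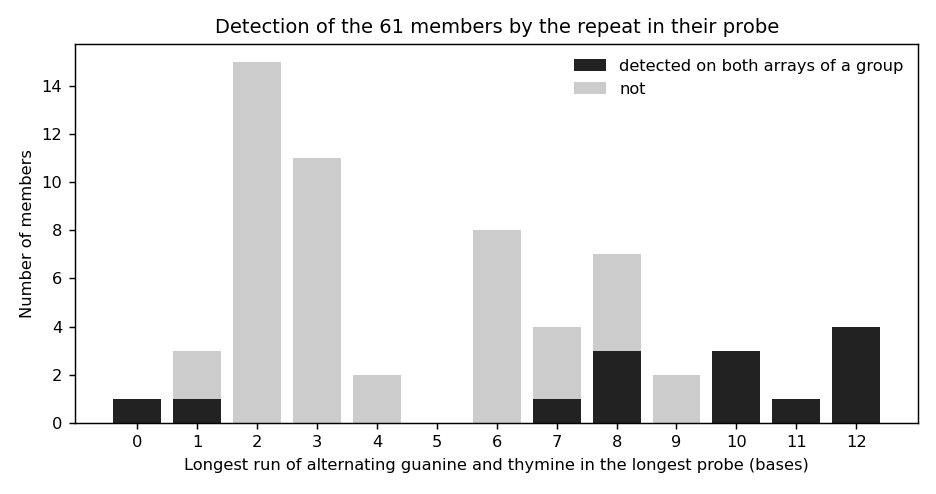
Number of members (vertical axis) by the longest run of alternating guanine and thymine in the longest probe (horizontal axis, in bases). Dark bars are members found on both arrays of either group, light bars the others. All 8 members from 10 bases on are dark, and the dark bars at 0 bases and 1 base are miR-466i-5p and miR-669n.

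In several members the nested probes lost signal with their 3′ base. For miR-466q, the probe of 17 bases had a median raw signal of 73.7, 77.8, 74.0 and 61.7 scanner units on vehicle 1, vehicle 2, CL 1 and CL 2, and the probe of 16 bases 44.97, 42.0, 44.6 and 37.3. All 20 spots of the longer probe, and at most 1 of the 20 of the shorter, were well above background on each array. The mean of the negative control spots was 31.7 to 38.6 on the 4 arrays. For miR-466f-3p, the 4 probes of 17, 16, 15 and 14 bases fell from 73.0 to 61.3, 49.98 and 42.3 on vehicle 1, so that the shortest stood near the negative controls. By contrast, the 4 probes of miR-669p-3p gave 71.4, 66.8, 64.4 and 70.7 from the longest to the shortest on that array. In miR-669h-3p the shorter probe was the brighter, with 47.0 against 43.5. Probes differ in affinity, so none of these signals is an amount of RNA.

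**Figure D2:**
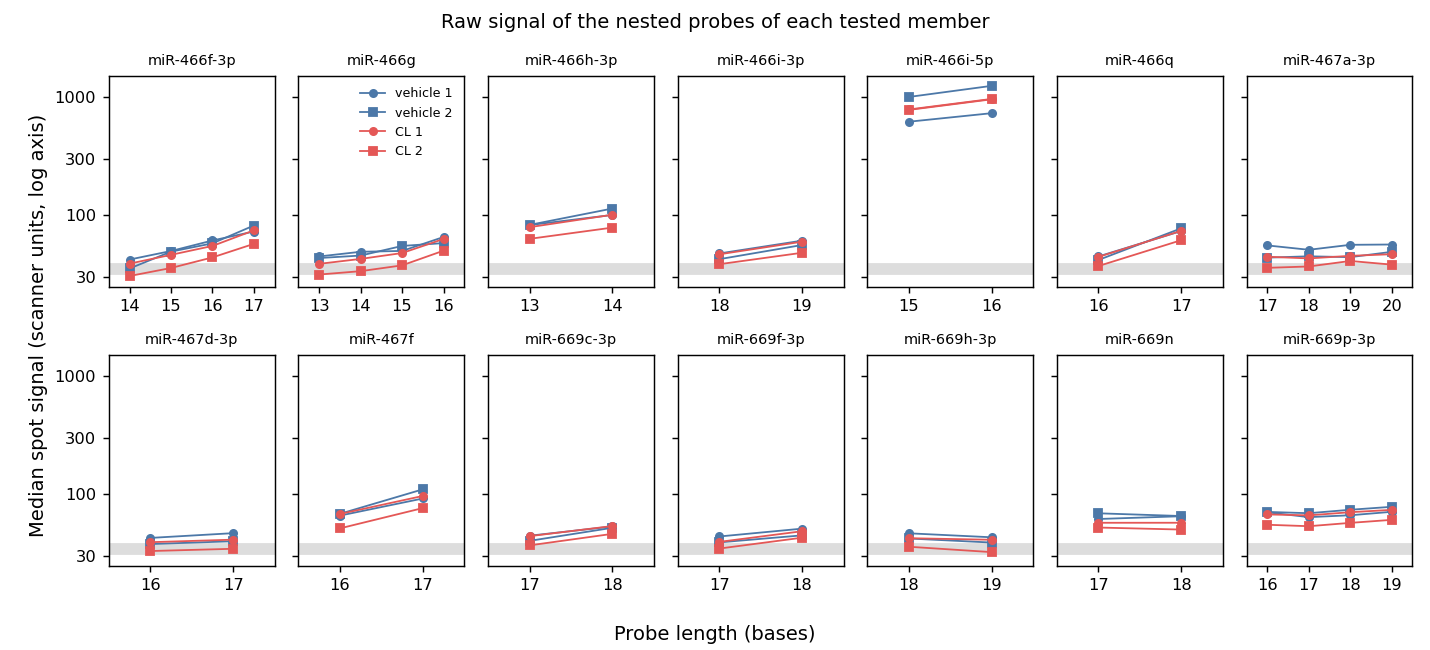
Median raw spot signal (vertical log axis, scanner units) against probe length (bases) for the nested probes of each of the 14 detected members. Blue is vehicle and red CL, circles are replicate 1 and squares replicate 2. The grey band spans the means of the negative controls, 31.7 to 38.6. miR-466i-5p lies far above the band on all arrays, while both probes of miR-467d-3p and miR-669h-3p lie close to it.

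The question of the comparison was which miRNAs of the SVF change in early browning. Across the 14 tested members, 0 rose and 2 fell after CL at an unadjusted p of 0.05 (limma). Over the whole array, 18.8% of the 425 tested miRNAs rose and 16.2% fell by the same rule. The members that fell were miR-467a-3p and miR-467d-3p, both of which entered the test only through the vehicle arrays. Among miRNAs detected on all 4 arrays, 0 members fell. After Benjamini-Hochberg adjustment over all 425 miRNAs none of the members passed 0.05, nor did any miRNA of the array (0%), where 149 had an unadjusted p under 0.05. The smallest adjusted p of a member was 0.11. With the replicate number as a block 86 miRNAs passed (20.2%), of which 0 were members. A permutation test of a single miRNA cannot go below an exact p of 0.333 with 2 arrays a group.

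miR-467a-3p, whose probe points to 10 copies in Sfmbt2, had log2 normalised signals of 5.02, 4.92, 4.58 and 4.53, which are given here and below in the order vehicle 1, vehicle 2, CL 1, CL 2. Both CL values were under both vehicle values. Its log2 fold change was -0.41 with an SE of 0.12 (limma adjusted p = 0.11), and it also fell at an unadjusted p of 0.05 with the block. miR-467d-3p had its used position at chr2:10507681-10507697. Several listed positions of it that were not used overlapped positions listed for miR-467a-3p, such as chr2:10398023-10398039 with chr2:10398019-10398038. The values of miR-467d-3p were 4.62, 4.69, 4.31 and 4.27 in the same order. Its log2 fold change was -0.36 with an SE of 0.12 (adjusted p = 0.12), and the call at an unadjusted p of 0.05 was lost with the block. miR-669h-3p, at chr2:10518223-10518240, had 4.54, 4.71, 4.37 and 4.32, with a log2 fold change of -0.28 and an SE of 0.13 (adjusted p = 0.20). These 3 had a detection call on both vehicle arrays but on neither CL array, which was so for 24 of the 425 tested miRNAs (5.65%). The opposite, both CL arrays and neither vehicle array, held for 4 miRNAs (0.941%) and for 0 members. On the CL arrays these 3 members were not detected. In the fit, vehicle was 1.33-fold higher for miR-467a-3p, 1.28-fold for miR-467d-3p and 1.21-fold for miR-669h-3p. These are estimates with the SEs above and not lower bounds. A floor at the dimmest detected miRNA did not change them, because the CL signal stood above it. The differences shrank with the background correction. With a local background and an offset of 50 the log2 fold changes were -0.14, -0.13 and -0.12. On the vehicle arrays themselves the signal was faint, least so for miR-467a-3p, with 10 and 6 of the 10 spots of its longest probe well above background. The software called miR-467d-3p detected with 5 and 1 of the 20 spots of its longest probe well above background, and miR-669h-3p with 3 and 0. The shorter probe of miR-669h-3p had 1 and 3 of 20. On the CL arrays all 3 members had 0 such spots.

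Among the miR-466 members, miR-466i-5p from chromosome 13 had the highest signal, with 9.13, 10.07, 9.87 and 9.67 on the log2 scale. Both CL values lay between the vehicle values, and it was the only tested member with a fold change above 0 (0.17, SE 0.34). miR-466h-3p, at chr2:10514946-10514958, had 5.98, 6.35, 6.15 and 5.74, and its groups overlapped. miR-466q had 5.09, 5.39, 5.31 and 5.01, and miR-466i-3p had 4.94, 5.07, 5.04 and 4.78, both with overlapping groups. miR-466f-3p, which has 3 positions in Sfmbt2, had 4.97, 5.27, 4.99 and 4.68, and CL 1 lay above vehicle 1. In miR-466g, at chr2:10514648-10514662, the values were 4.80, 5.01, 4.69 and 4.44, so that both CL values were the lower ones. The log2 fold change of miR-466g was -0.34 with an SE of 0.16 (adjusted p = 0.20), and those of the other 4 with negative values ran from -0.28 to -0.08.

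In the miR-467 family, miR-467f from chromosome 11 had 5.72, 6.21, 6.01 and 5.55 on vehicle 1, vehicle 2, CL 1 and CL 2, with a log2 fold change of -0.18 and an SE of 0.25. Its groups overlapped, unlike those of miR-467a-3p and miR-467d-3p. In the miR-669 family, miR-669p-3p had 5.46, 5.87, 5.71 and 5.35, and miR-669c-3p, at chr2:10509363-10509380, had 4.87, 5.04, 4.95 and 4.82, both with overlapping groups. miR-669n had 5.37, 5.74, 5.28 and 5.19, with both CL values the lower ones, a log2 fold change of -0.32 and an SE of 0.17 (adjusted p = 0.24). miR-669f-3p had 4.62, 4.65, 4.54 and 4.55, which differed in the same direction by only -0.09 (SE 0.11). The miR-297 family had no tested member. Its highest signal, in miR-297a-3p, was 4.22, 4.27, 4.09 and 4.07 without detection on any array.

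**Figure D3:**
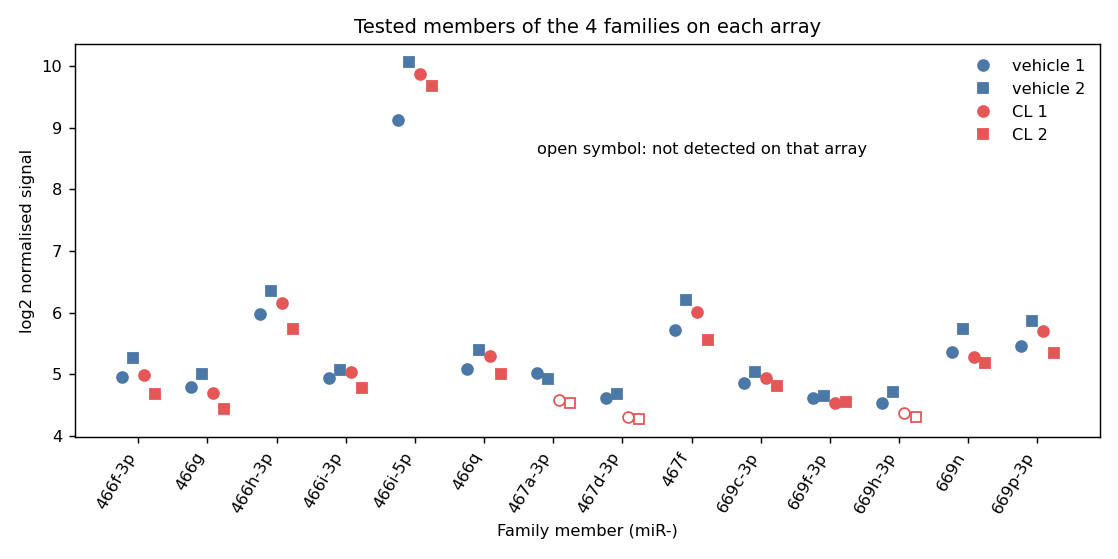
Log2 normalised signal (vertical axis) of each of the 14 tested members on the 4 arrays. Blue is vehicle and red CL, circles are replicate 1 and squares replicate 2, and open symbols mark arrays without detection. miR-466i-5p lies at 9.13 to 10.07 and the highest of the others at 6.35. The open symbols are the CL arrays of miR-467a-3p, miR-467d-3p and miR-669h-3p.

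By counts, 13 of the 14 tested members had a log2 fold change below 0, with a median of -0.20, against 216 of 425 and a median of -0.01 over all tested miRNAs. Of the 14, 3 (miR-467a-3p, miR-467d-3p and miR-669h-3p) were tested only because they were detected on the vehicle arrays, so that a negative value was favoured in them. Among miRNAs detected on all 4 arrays, 10 of 11 members were below 0 with a median of -0.14, against 176 of 362 and a median of 0.02 over all. In 6 members neither CL value reached the lower vehicle value, while this held for 34.8% of all tested miRNAs. Among miRNAs detected on all 4 arrays it held for 3 of the 11 members (27.3%) and for 33.1% of all. In 0 members both CL values lay above both vehicle values, against 38.1% of all. The 6 were miR-466g, miR-467a-3p, miR-467d-3p, miR-669f-3p, miR-669h-3p and miR-669n. Of the members detected on all 4 arrays, the 6 positioned only in Sfmbt2 had a median of -0.18 and the 4 positioned only outside it -0.09. The median was -0.11 over the 8 members with the longest repeats. In some members arrays of the same group differed by as much as the groups did. The SD of the vehicle pair was 0.66 for miR-466i-5p, 0.35 for miR-467f and 0.26 for miR-466h-3p, with n = 2 arrays each. In others it was smaller than the size of the fold change, with 0.067 for miR-467a-3p, 0.050 for miR-467d-3p and 0.023 for miR-669f-3p.

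**Figure D4:**
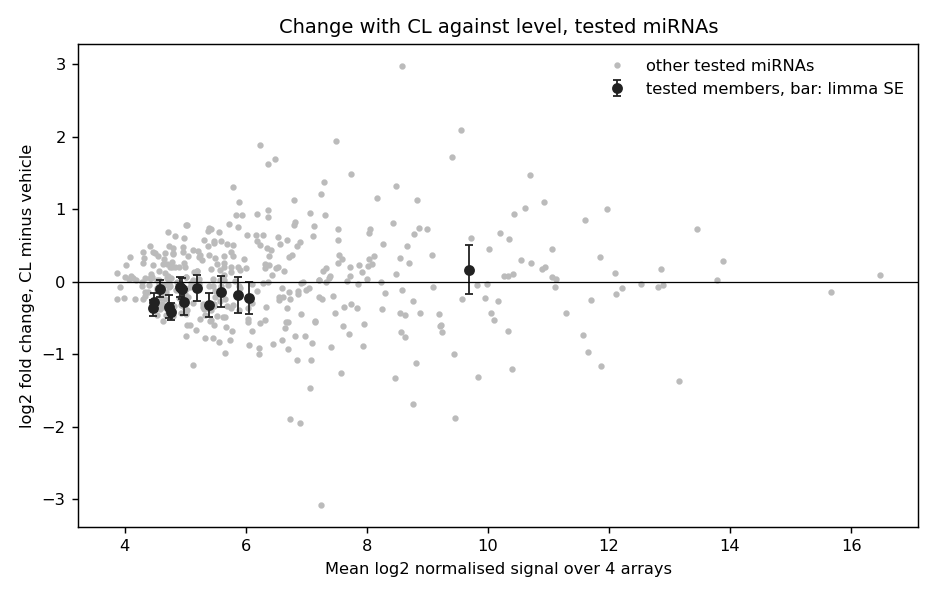
Log2 fold change of CL minus vehicle (vertical axis) against the mean log2 normalised signal over the 4 arrays (horizontal axis) for the 425 tested miRNAs. Black points are the 14 tested members with the limma SE as bars, grey points the others. 13 members lie between -0.41 and -0.07, and miR-466i-5p lies at 0.17.

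Most tested members had the same highest and the same lowest array. In 6 of the 14 both CL values were also below both vehicle values, and 3 of these 6 were tested only through the vehicle arrays. Vehicle 2 was the highest array for 13 of the 14 tested members, and CL 2 was the lowest for 12. Over the 411 tested miRNAs that are no members, vehicle 2 was the highest for 179 (43.6%) and CL 2 the lowest for 43 (10.5%). Vehicle 2 exceeded vehicle 1 in 13 members, against 54.3% of the miRNAs that are no members. CL 1 exceeded CL 2 in 13, against 41.4%. The size of the fold changes depended on single arrays. The median over the members was -0.058 without vehicle 2 and also without CL 2, but -0.36 without vehicle 1 and -0.34 without CL 1. At the slide, both vehicle arrays were in 1 row and both CL arrays in another, so that row and treatment cannot be told apart.

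miR-466i-5p departed from the order of most other members, with vehicle 1 lowest, and probes of like sequence outside these families did so too. Only 2 other miRNAs of the array, miR-574-5p and miR-3082-5p, had 10 or more alternating cytosines and adenines in the longest probe, as miR-466i-5p has. miR-574-5p had 7.58, 8.34, 8.30 and 8.11 on vehicle 1, vehicle 2, CL 1 and CL 2, and miR-3082-5p had 5.98, 6.61, 6.33 and 6.21. In both, as in miR-466i-5p, vehicle 1 was the lowest array, vehicle 2 the highest, and CL 1 above CL 2. Over the 20 miRNAs outside the families with CACACA or ACACAC in the longest probe, 6 were tested, 3 of these had a fold change below 0, and 0 rose or fell at an unadjusted p of 0.05 (median 0.04). For the 9 with GTGTGT or TGTGTG, 3 were tested, all with a fold change above 0 (median 0.38). The Dlk1-Dio3 cluster on chromosome 12, the other large imprinted miRNA cluster of the mouse, had 50 of 115 miRNAs tested, with 11 below 0 and a median of 0.47. Of these, 26 rose and 3 fell at an unadjusted p of 0.05.

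Markers of the cell types of the SVF differed between the groups as well. For each cell type the signals of its arms were summed and the log2 of the sum taken, so that the brightest arm weighs most. The markers of red cells (3 of 3 tested), led by miR-451a, had 13.002 to 13.22 on the vehicle arrays. On the CL arrays they had 13.80 to 14.05, and all 3 rose at an unadjusted p of 0.05 (limma). Those of mesenchymal stroma (7 of 9 tested) had 11.35 to 12.002 and 12.69 to 12.73, where 4 rose and 1 fell. The leukocyte markers (6 of 8 tested), led by miR-223-3p, had 10.88 to 11.25 and 11.75 to 11.79, where 2 rose and 1 fell. The endothelial miR-126 (2 of 2 arms) had 13.80 to 13.92 on vehicle and 12.33 to 12.66 on CL arrays, and both arms fell. Of the markers of mesothelium and epithelium 1 of 10 was tested, miR-200b-3p, with a mean log2 signal of 4.48, and 0 rose or fell. The sum over all 10, most of them near background, was 7.34 to 7.42 on vehicle and 7.49 to 7.51 on CL arrays. miR-122, which marks hepatocytes, was tested in 0 of 2 arms. The part of these markers' cells in the members' values was not tested.

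The scanner software also writes a total per miRNA, which was compared with the totals of its probes. For 28 of the 51 detected member values it equalled a sum over the miRNA's own probes. For the other 23 (45.1%) it equalled such a sum plus the total listed for the detected miRNA that comes before it in name order, within 0.02%. This held for 391 of the 1640 detected values of the whole array (23.8%). For miR-466q, the total was 507, 23.1, 663 and 657 on vehicle 1, vehicle 2, CL 1 and CL 2, of which the miRNA's own probes made up 14.9, 23.1, 14.6 and 11.7. The rest was the total of miR-466i-5p. For miR-669c-3p, the total was 17.3, 19.3, 115 and 140, while its own probes gave 7.49, 9.01, 6.67 and 5.97. The rest came from miR-664-5p on the vehicle arrays and from miR-6538 on the CL arrays. The total of miR-669f-3p then took up that of miR-669c-3p, and the total of miR-466i-3p took up that of miR-466h-3p on both CL arrays only. All values above were computed from the spots and do not use these totals.

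**Figure D5:**
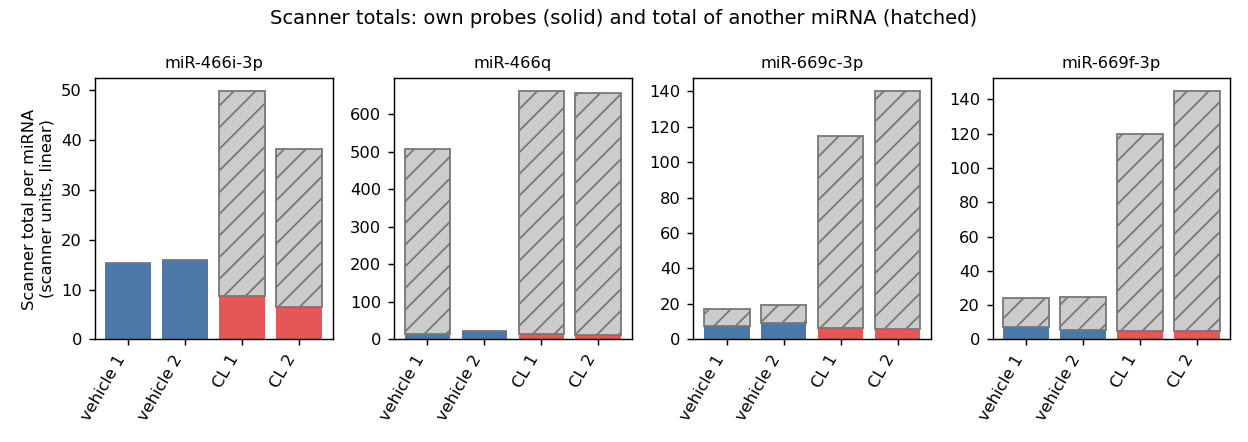
Total per miRNA as written by the scanner software (vertical axis, linear scanner units) on the 4 arrays for 4 members. Solid bars are the miRNA's own probes, blue for vehicle and red for CL, and hatched bars the total of another miRNA included in it. The totals of miR-669c-3p reach 115 and 140 on the CL arrays, where its own probes give 6.67 and 5.97.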

How the data were processed

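RNA of 4 SVF pools was measured on 1-colour mouse miRNA arrays on 1 slide. Per the file headers, the authors deposited spot signal intensities from Feature Extraction 10.7.1.1, with 52044 spots per array, 49880 of them for 1247 miRNAs and 1000 negative controls. They also deposited a log2 table. The study's methods name robust multi-array analysis for its arrays, and no source used here says how undetected miRNAs were filled in. The column medians of that table were -3.31, -3.30, -3.20 and -3.26, each also its lowest value, which 46 to 50 members carried. The mean spot signals were background-corrected by normexp, control and outlier spots were left out, and the rest were quantile-normalized, log2-transformed and summarised by median polish. miRNAs detected on both arrays of a group were compared with limma 3.58.1 (R 4.3.3), two-sided, with Benjamini-Hochberg adjustment. From 386 to 431 miRNAs were detected per array, no spot was saturated, and the number of arrays limits the precision. The script was tested on simulated data. Same-numbered arrays, which share a slide column, deviated together with a correlation of 0.12. Per-array values were given for every tested member and the miR-297 member with the highest signal. The members and the compared lists were chosen with earlier results of these data known.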

Additional observations from a re-analysis of the deposited data

Results flagged for a closer look

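The scanner software's totals, which the values of the report do not use, stood above both vehicle arrays on both CL arrays for 4 members. The mean total on the CL arrays was 6.96 times that on the vehicle arrays for miR-669c-3p, 5.39 times for miR-669f-3p, 2.80 times for miR-466i-3p and 2.49 times for miR-466q. In each of these the total on the CL arrays included that of another miRNA. The sum of the own probes that entered it was lower on both CL arrays than on both vehicle arrays. These sums were not of the same probes throughout. For miR-466i-3p 2 probes entered on the vehicle arrays and 1 on the CL arrays, and for miR-466q 2 on vehicle 2 and 1 on the others. The normalised values of miR-466q, miR-466i-3p and miR-669c-3p overlapped between the groups.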

How the results depend on the processing

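The number of members that fell at an unadjusted p of 0.05 (2) depended on the processing, and the cause was not tested. Shares over all miRNAs are not given beside the counts of this section, so the counts cannot be read as particular to the members. It was 5 when arrays were scaled by percentile 75 over the detected probes, 4 by that over all probes, and 4 with an intensity trend. It was 7 with the trend on probe composition removed. Without a filter on dim miRNAs it was 12, there out of all 61 members, most of them not detected. It was 0 with a local background and an offset of 50, without normalization, with median centring, and among miRNAs detected on all 4 arrays. It was 1 without background correction and 1 with the replicate block. Averaging the miRNAs whose longest probes share 14 bases, a setting chosen after seeing the data, also gave 1. Leaving out 1 array at a time left a group with 1 array only, so that no counts of calls are given for it. The median fold change then ran from -0.36 to -0.058. It was -0.47 and -0.36 with the percentile scalings, -0.44 with the composition trend removed and -0.39 in the deposited table. Without normalization the median of all tested miRNAs shifted to -0.12 and that of the members to -0.31. An adjusted p of 0.05 was passed by 1 member with the composition trend removed, and by 2 in the deposited table, where undetected miRNAs share a fill value. With the scanner totals 3 members rose and 2 fell, miR-467a-3p (-2.45) and miR-467d-3p (-2.99). The 4 that passed the adjusted p were these 2, miR-669c-3p and miR-669f-3p. The log2 fold change turned to 1.97 for miR-466i-3p, which did not pass, 3.22 for miR-669c-3p and 2.72 for miR-669f-3p. It was also above 0 under this setting, without a call, for miR-466q (3.07) and miR-466g (0.65). With the sum of each miRNA's own probe totals, also chosen after seeing the data, none of miR-466i-3p, miR-669c-3p and miR-669f-3p rose. Requiring most spots of a probe well above background, or detection on all 4 arrays, gave 11 members, and detection on at least 1 array 15. Signals close to the negative controls limit all comparisons of the dim members.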
